A study of Drosophila melanogaster with 8 samples.

Results

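The genes described here encode the larval serum proteins and the fat body proteins of Drosophila melanogaster: Lsp1alpha, Lsp1beta, Lsp1gamma, Lsp2, Fbp1 and Fbp2. These 6 genes were picked by name, with earlier results of these data known, from 17898 entries in the whole-fly table and 23983 in the muscle table, and every member was found in both. Because the choice was made with their levels in all 8 libraries in view, the differences of the 6 genes between genotypes and tissues are given as a description, without a test.

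RNA sequencing was done on adult whole flies and on adult muscle, each from wildtype flies and from flies labelled mutant, which the series' design text calls an anw knockout. Each of the 4 groups had 2 libraries, all from flies cultured at 25 °C on cornmeal food, with 1.3 µg of total RNA per library. The labels name no allele, driver, sex or age, and leave it unsaid whether repeats are different flies. The p-values given below therefore measure no more than the spread of these libraries, part or all of which may be technical. No table or annotation used here pairs the name anw with a gene, so the genotype labels were not checked. Levels are FPKM, reads divided by gene length and by library size, as scaled by the authors. The tables of the tissues were scaled separately, so levels set across tissues are side by side only.

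Larval serum proteins are hexamerins, storage proteins related to arthropod hemocyanin. In the fly they are made by the fat body of late larvae, secreted into the hemolymph, taken back into the fat body before metamorphosis and used as a store of amino acids for building the adult. Ecdysone, the moulting steroid, controls fat body genes of this stage. Larval fat body cells persist for a short time in newly emerged adults before the adult fat body takes over.

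Lsp1alpha, Lsp1beta and Lsp1gamma encode the subunits of the mixed hexamer LSP1, and their genes lie on different chromosome arms. In release 6 coordinates, Lsp1alpha (FBgn0002562) spans X, 12490291 to 12492982, Lsp1beta (FBgn0002563) spans 2L, 898500 to 901316, and Lsp1gamma (FBgn0002564) spans 3L, 66430 to 68995, all on the plus strand. Each has 2 exons around an intron of 65 to 68 bases and a longest reading frame of 816, 789 and 772 amino acids, in that order. Lsp2 (FBgn0002565; 3L, 12129393 to 12131869, plus strand) encodes the subunit of the separate hexamer LSP2, with 701 amino acids in a single exon. Fbp1 (FBgn0000639; 3L, 14094589 to 14098053, minus strand) encodes the fat body receptor that takes up LSP1, with 1029 amino acids. Fbp2 (FBgn0000640; 2L, 9426784 to 9427917, plus strand) is of another family: its 256 amino acids carry a short chain dehydrogenase domain, while the deposited descriptions list hemocyanin domains for the other members. The antisense RNA asRNA:CR11538 covers 2096 bases of Lsp2 but had 0 reads in all 8 libraries, and 48 bases of Fbp2 overlap CG42847 on the same strand.

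In whole flies all 6 genes stood higher in both mutant libraries than in both wildtype libraries. Their summed level was 8.51 and 7.02 FPKM in wildtype and 122 and 112 FPKM in mutant. In wildtype only Lsp1beta and Lsp1gamma reached 1 FPKM, and the other 4 genes had at most 0.472 FPKM. RNA of a whole fly is a mixture, and in such bulk samples fewer cells of a type and less RNA per cell cannot be told apart.

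Fbp1 showed the widest gap. It had 0.0146 and 0.0689 FPKM in wildtype whole flies, from 1 and 5 reads, and 31.0 and 25.4 FPKM in mutant, from 2227 and 1743 reads. By reads pooled over the 2 libraries of a genotype and scaled for library size, the level in mutant was 664 times that in wildtype. The 95% counting interval, from 305 to 1809, covers counting error only. Taken as log2(FPKM + 1), where the added 1 shrinks the differences of low genes, mutant minus wildtype was 4.80 ± 0.15 (limma SE, n = 2 per group). In wildtype 9.32% and 10.5% of protein-coding genes lay below Fbp1, and in mutant 82.5% and 79.9%.

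Fbp2 was the most abundant member in mutant whole flies. It went from 0.472 and 0.133 FPKM in wildtype, on 10 and 3 reads, to 48.7 and 40.9 FPKM in mutant, on 1086 and 871 reads. That is a ratio of 151 (95% counting interval 88.1 to 284) and a log2 difference of 5.14 ± 0.17 (limma SE, n = 2 per group). CG42847, which overlaps Fbp2, had 146 and 154 reads in wildtype and fewer, 104 and 118, in mutant.

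Lsp2 was, like Fbp1, almost undetected in wildtype whole flies. Levels were 0.0613 and 0.0385 FPKM there, from 3 and 2 reads, and 6.24 and 9.64 FPKM in mutant, from 321 and 473 reads. The ratio was 159 (95% counting interval 68.0 to 492) and the log2 difference 3.06 ± 0.21 (limma SE, n = 2 per group). The lower mutant library still lay 102 times above the higher wildtype library.

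Among the LSP1 subunits the level followed the order gamma, beta, alpha in both genotypes, and the ratio between genotypes the reverse. Lsp1alpha had 0.289 and 0.273 FPKM in wildtype, 4.02 and 3.38 in mutant, a ratio of 13.2 (95% counting interval 9.10 to 19.8). Lsp1beta had 1.68 and 1.20 FPKM in wildtype, 10.7 and 9.75 in mutant, a ratio of 7.17 (6.07 to 8.51). Lsp1gamma, with 5.99 and 5.31 FPKM in wildtype, then 21.1 and 23.0 in mutant, had a ratio of 3.91 (3.56 to 4.29). None of these pairs of groups overlapped. Their log2 differences were 1.87 ± 0.17, 2.21 ± 0.16 and 1.80 ± 0.12 (limma SE, n = 2 per group), so by log2(FPKM + 1) alpha and gamma are close although their ratios are far apart.

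**Figure D1:**
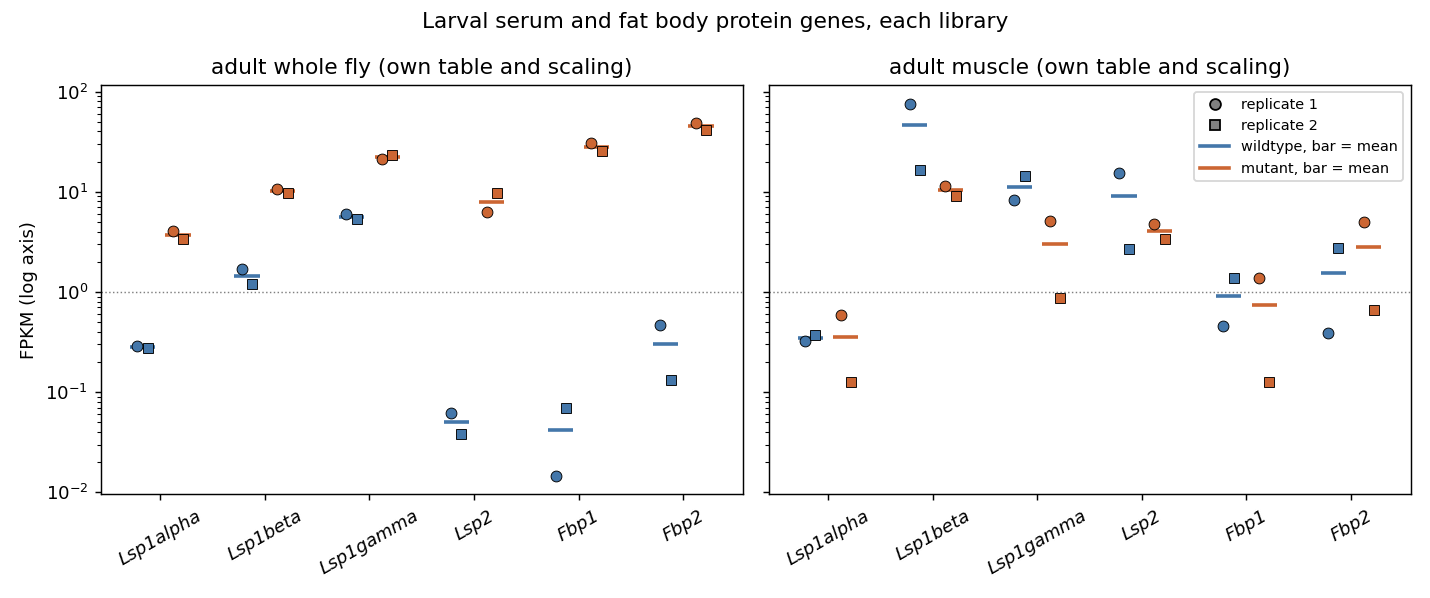
FPKM of each gene in each library on a log axis, for adult whole flies (left) and adult muscle (right); circles are replicate 1, squares replicate 2, bars the mean of 2 libraries, and the dotted line 1 FPKM, the filter's minimum. In whole flies the mutant points of all 6 genes lie above the wildtype points, while in muscle the replicates of a genotype scatter widely and the groups overlap for Lsp1alpha, Lsp2, Fbp1 and Fbp2.

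In mutant whole flies the replicates of each gene lay within a factor of 1.54 of each other. In wildtype the few reads left wider gaps, a factor of 4.71 for Fbp1 and 3.54 for Fbp2. The median absolute difference of log2(FPKM + 1) between replicates, in which the added 1 flattens values near 0, was 0.11 in wildtype and 0.22 in mutant, beside 0.12 and 0.16 over all 11419 entries that passed the filter of at least 1 FPKM in at least 2 libraries. In the order of mutant levels, Fbp2, Fbp1, Lsp1gamma, Lsp1beta, Lsp2 and Lsp1alpha, no neighbours overlapped. In wildtype the order was Lsp1gamma, Lsp1beta, Fbp2, Lsp1alpha, Lsp2 and Fbp1, where Fbp2 could not be separated from Lsp1alpha, nor Lsp2 from Fbp1.

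Over all entries, limma at an adjusted p under 0.05 called 1135 higher and 1237 lower in mutant whole flies. All 6 genes were among the higher calls, where 9.94% of all tested entries were, and their groups did not overlap, while mutants lay above wildtypes for 34.5% of entries and below for 31.5%. Nothing is read from these counts, since the genes were chosen with these levels known and Lsp1alpha, Lsp2, Fbp1 and Fbp2 passed the filter only through the mutant libraries. By size of the log2 difference Fbp2 ranked 5 and Fbp1 7 from the top, Lsp2 24, Lsp1beta 51, Lsp1alpha 85 and Lsp1gamma 90.

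The make-up of the group's RNA also differed between the genotypes. In wildtype whole flies Lsp1gamma accounted for 70.5% and 75.6% of the summed FPKM of the 6 genes, and in mutant for 17.3% and 20.5%. Fbp1 and Fbp2 together with Lsp2 made up most of the sum in mutant, with Fbp2 at 40.0% and 36.5%, Fbp1 at 25.4% and 22.6% and Lsp2 at 5.13% and 8.60%. Within LSP1 alone, the share of Lsp1alpha was 3.64% and 4.03% in wildtype and 11.2% and 9.36% in mutant. The Fbp2 to Fbp1 ratio was 1.57 and 1.61 in the mutant libraries.

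**Figure D2:**
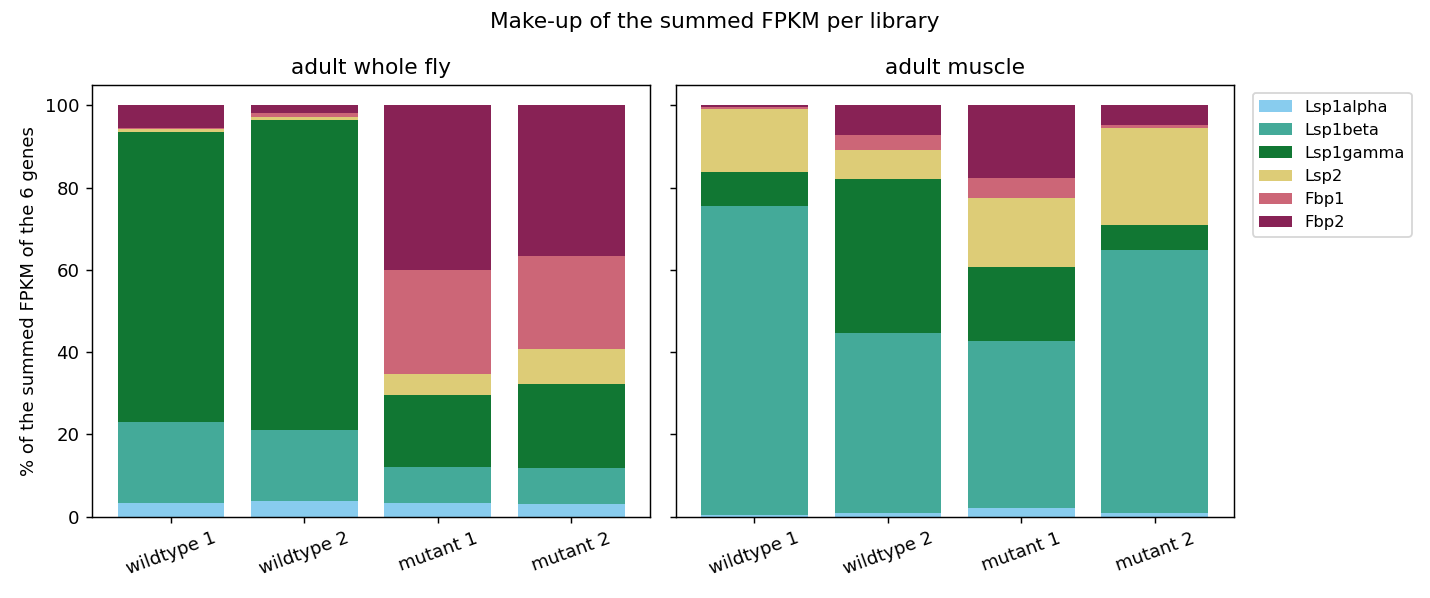
Share of each gene in the summed FPKM of the 6 genes, in %, for each library of whole flies (left) and muscle (right). Lsp1gamma fills most of the wildtype whole-fly bars, at 70.5% and 75.6%, Fbp1 and Fbp2 most of the mutant ones, and Lsp1beta the largest part of each muscle bar.

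Muscle gave another picture, led by Lsp1beta and marked by differences between replicates. The summed level of the 6 genes was 101 and 38.0 FPKM in wildtype, then 28.2 and 14.3 in mutant. For the members the median absolute log2 difference between replicates was 1.08 in wildtype and 0.78 in mutant, beside 0.17 and 0.25 over all 10079 entries that passed the filter in muscle. Lsp1alpha did not pass that filter.

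Lsp1beta was the highest of the 6 genes in every muscle library. It had 75.8 FPKM in wildtype replicate 1, on 4455 reads, 16.6 in wildtype replicate 2, and 11.5 and 9.11 in mutant. Both mutants lay below both wildtypes, but the wildtypes differed from each other by a factor of 4.57 and the nearest libraries of the groups by only 1.44. Mutant minus wildtype was -1.71 ± 0.78 (log2, limma SE, n = 2 per group), and -0.65 without wildtype replicate 1.

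Lsp1gamma likewise had lower values in both mutant muscle libraries. Levels were 8.17 and 14.3 FPKM in wildtype, then 5.08 and 0.876 in mutant, a log2 difference of -1.81 ± 0.67 (limma SE, n = 2 per group). Mutant replicate 2 had 40 reads against 257 in mutant replicate 1, and without it the difference was -0.96. Without mutant replicate 1 it was -2.66.

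The groups overlapped for the other members. Lsp2 had 15.5 and 2.71 FPKM in wildtype muscle and 4.73 and 3.36 in mutant, with wildtype replicate 1 far above the other libraries, as for Lsp1beta. Fbp2 had 0.392 and 2.72 FPKM in wildtype, 4.97 and 0.663 in mutant, and Fbp1 0.459 and 1.36 in wildtype and 1.37 and 0.126 in mutant. For this pair wildtype replicate 2 and mutant replicate 1 were high and the other libraries low, whatever the genotype. CG42847, which overlaps Fbp2 on the same strand, had 30 and 4 reads in wildtype muscle and 143 and 2 in mutant. Its part in the muscle level of Fbp2 was not tested. Lsp1alpha stayed under 1 FPKM in all muscle libraries, between 0.125 and 0.583. The log2 differences of Lsp2, Fbp1 and Fbp2 were -0.65 ± 0.80, -0.18 ± 0.56 and 0.47 ± 0.86 (limma SE, n = 2 per group), each smaller than its error. Without wildtype replicate 1 Lsp2 turned to 0.43 and Fbp2 to -0.24, and without mutant replicate 2 Fbp1 turned to 0.35.

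At an adjusted p under 0.05 limma called 0 of 10079 entries in muscle, as did limma-voom fitted to recovered reads, and 1408 entries were under 0.05 before adjustment. Thus 0% of entries were called and 0 of the 5 members tested. For 25.3% of entries both mutants lay below both wildtypes, as for Lsp1beta and Lsp1gamma.

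**Figure D3:**
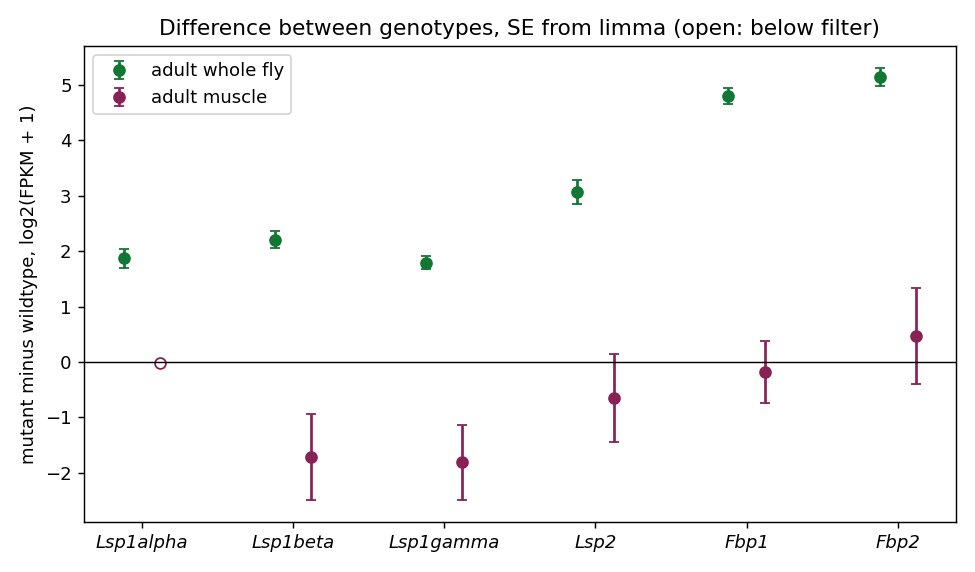
Difference of log2(FPKM + 1), mutant minus wildtype, for each gene in whole flies and in muscle; points are differences of means of 2 libraries per genotype, bars the limma SE, and the open point (Lsp1alpha in muscle) did not pass the filter. Whole-fly values run from 1.80 to 5.14, and muscle values from -1.81 to 0.47.

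Set side by side, Lsp1beta and Lsp1gamma were the highest members in wildtype whole flies and, by mean level, in wildtype muscle. There Lsp1gamma could not be separated from Lsp2, which stood above it in wildtype replicate 1, at 15.5 against 8.17 FPKM. Fbp1 and Fbp2 were the top members in mutant whole flies, yet in muscle of either genotype no library held more than 1.37 FPKM of Fbp1 or 4.97 of Fbp2. Lsp1beta had 75.8 and 16.6 FPKM in wildtype muscle beside 1.68 and 1.20 FPKM in wildtype whole flies. The difference of the genotype effect between the tissues was not tested.

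Markers of other tissues also differed between the genotypes in whole flies. All 7 genes of the muscle marker list rose, where 9.94% of all tested entries did. Among them Act88F, the flight muscle actin, rose by 1.14 ± 0.14 (log2, limma adjusted p = 0.0015). The list summed to 1829 and 1558 FPKM in wildtype, then 3494 and 3470 in mutant, and a rise particular to flight muscle was not tested. With the spread shared over all 8 libraries Act88F and Mhc, the myosin heavy chain gene, lost their calls, and Mhc lost its call without either wildtype library. Of 7 ovary genes 6 rose, beside the same 9.94% of all entries, with a summed level of 2230 and 1833 FPKM in wildtype, then 5603 and 4821 in mutant. The chorion gene Cp15 led with 1.97 ± 0.24 (limma adjusted p = 0.00162), the vitelline membrane genes Vm26Aa and Vm26Ab rose by 1.21 and 1.07, Cp16 by 1.24, nanos by 0.78 and osk by 0.40. Under the shared spread Vm26Aa and Vm26Ab lost their calls, and the other 4 genes were not tested. The call of osk ended with any library left out, that of nanos without wildtype replicate 1 and that of Cp16 without mutant replicate 1. Gut proteases went both ways: alphaTry fell by 1.12, betaTry by 0.65 and Jon65Aiii by 0.53 on the log2 scale, while Jon99Ci rose by 0.78, beside 20.8% of all entries called in either direction. Without wildtype replicate 1 the calls of betaTry and Jon65Aiii ended, and with the shared spread only that of alphaTry remained. None of the 4 tested hemocyte genes and 5 male genes was called, with summed levels of 24.1 to 34.2 and 355 to 463 FPKM, and no gene of these 5 lists was at 0 in any whole-fly library. Of 5 adult fat body genes Yp2 and fit were called higher, beside the same 9.94% of all entries. The gene fit passed the filter only through the mutant libraries, and Yp2 lost its call under the shared spread. This list summed to 7194 and 6850 FPKM in wildtype, then 9957 and 9113 in mutant. The part of these tissues in the levels of the storage protein genes was not tested.

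In muscle, the libraries also held RNA of marker genes of other tissues. The source of this RNA was not tested. The muscle marker list summed to between 6385 and 9354 FPKM, with none of its genes at 0. The gut list, however, reached 6885 to 12577 FPKM. The adult fat body list reached 26742 and 14467 FPKM in wildtype, then 8467 and 19586 in mutant. Ovary genes summed to 549 FPKM in wildtype replicate 1, the library with the highest Lsp1beta and Lsp2, against 10.0, 3.53 and 39.0 in the others. Male genes summed to 50.6 and 16.4 FPKM in wildtype, 125 in mutant replicate 1 and 1.68 in mutant replicate 2. Fbp1 and Lsp1gamma were lowest in mutant replicate 2. In wildtype both were lower in replicate 1, which had the higher male sum. They stood there at 0.459 and 8.17 FPKM, against 1.36 and 14.3 in replicate 2. The part of this marker RNA of other tissues in the muscle levels of the 6 genes was not tested.

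Genes secreted by the fat body and lipid carriers went both ways in whole flies. Of 22 genes 21 passed the filter, 5 were called higher and 3 lower, where 9.94% and 10.8% of all tested entries were, with a median log2 difference of 0.04 beside 0.02 over all tested entries. The gene fit, which encodes a female-enriched satiety peptide of the fat body, had 0.381 and 0 FPKM in wildtype, on 4 and 0 reads, and 22.7 and 26.0 in mutant. It passed the filter only through the mutant libraries, so its log2 difference of 4.43 is given as a description, although it is counted among the 5. CCHa2, a fat body peptide hormone, rose by 1.40 ± 0.10 (limma adjusted p = 0.000185). The yolk protein gene Yp2 rose by 0.77 and the peptide gene Nplp2 by 0.68, while Yp1 at 0.16 and Yp3 at 0.27 did not pass. Gbp1, a growth-blocking peptide, rose by 0.64. The activin-like ligand gene daw fell by 0.80, the lipoprotein receptor gene LpR1 by 0.59 and the ferritin light chain gene Fer2LCH by 0.52 on the log2 scale. With the spread shared over all 8 libraries only fit and CCHa2 kept their calls. LpR1 and Fer2LCH also lost theirs without wildtype replicate 1, Fer2LCH without mutant replicate 1 and Nplp2 without wildtype replicate 2, and fit no longer passed the filter without either mutant library. The lipophorin gene apolpp, the main carrier of lipid in the hemolymph, had 173 and 124 FPKM in wildtype, 121 and 217 in mutant.

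Hormone and nutrient genes around the storage proteins showed no calls in whole flies, where 20.8% of all tested entries were called in either direction. Of 17 tested genes of the ecdysone list 0 were called, with a median log2 difference of -0.05. The receptor gene EcR had 4.59 and 3.95 FPKM in wildtype, 4.29 and 4.96 in mutant. The most abundant members of the list were Cth at -0.24 and MsrA at -0.05, both enzymes of sulphur amino acid metabolism. All 8 regulators of fat body genes were tested and 0 called, with a median of -0.07. The fat body GATA factor gene srp had 11.3 and 10.4 FPKM in wildtype, 10.8 and 11.8 in mutant, Hnf4 a log2 difference of -0.31 and foxo of -0.03. Of 11 genes of amino acid uptake and TOR signalling 0 were called, with a median of 0.01, Thor at -0.36 and path at -0.04. By limma-voom the counts were 3 ecdysone genes, 3 regulators and 1 TOR gene.

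Genes of the larval and prepupal stages were at or near 0 beside the storage proteins. None of them is in the fat body lists used here, and any link to the storage protein levels was not tested. Of 29 glue, larval cuticle, prepupal and pupal cuticle genes, 19 had 0 reads in all 4 whole-fly libraries and 28 stayed under 1 FPKM. Lcp1, a larval cuticle gene and the single member tested, had 2.23 and 1.17 FPKM in wildtype, 0.814 and 0.616 in mutant, and was not called. It passed the filter only through the wildtype libraries, so its log2 difference of -0.63 is given as a description. The pupal cuticle gene Edg91 had 0.0838 and 0.237 FPKM in wildtype, 0.797 and 0.0836 in mutant. The list summed to 54 and 42 reads in wildtype and 35 and 22 in mutant, whereas the 6 storage and fat body genes together had 416 and 372 reads in wildtype and 5562 and 4934 in mutant.

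Relatives by protein family went both ways in whole flies, and their difference from the members was not tested. The prophenoloxidases PPO1, PPO2 and PPO3, hemocyanin relatives that start melanin formation, were not called. PPO1 had 12.9 and 11.1 FPKM in wildtype, 18.7 and 15.3 in mutant, both mutants above both wildtypes (limma adjusted p = 0.0555). Adh, the alcohol dehydrogenase related to Fbp2, had 4.16 and 2.99 FPKM in wildtype beside 0.0214 and 0.134 in mutant. It passed the filter only through the wildtype libraries, so its log2 difference of -2.07 is given as a description. Pdh, the photoreceptor dehydrogenase, rose by 0.47 ± 0.11 (limma adjusted p = 0.023), a call that ended without either wildtype library and without mutant replicate 1. In all, 5 of the 6 relatives were tested in whole flies, and 1 was called higher and 1, Adh, lower, where 20.8% of all tested entries were called in either direction.

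In muscle 0 genes of any of these lists were called, as 0% of all entries were. Of the 21 genes secreted by the fat body or carrying lipid that were tested there, 15 had a negative and 6 a positive log2 difference, with a median of -0.44 beside 0.02 over all tested entries. Lsp1beta and Lsp1gamma were lower in the same mutant libraries, and any part of this in their levels was not tested. With the spread shared over all 8 libraries 1 gene of the list was called. Nplp2 had 6652 and 4723 FPKM in wildtype, 1602 and 1675 in mutant, a log2 difference of -1.77 ± 0.22 that was not called (limma adjusted p = 0.195). The most abundant of the list were Yp3 and Yp2, with log2 differences of -0.61 ± 0.60 and -0.63 ± 0.54 (limma SE, n = 2 per group). PPO2 stood at 0.19 and PPO1 at 0.06, foxo at -0.05 and Hnf4 at -0.24, MsrA at -0.27 and Eip63F-1 at 0.39, Thor at 0.30 and path at -0.38. Of the larval and prepupal genes 28 stayed under 1 FPKM in every muscle library, and the largest value was 1.45 FPKM, of Edg91 in wildtype replicate 2.

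**Figure D4:**
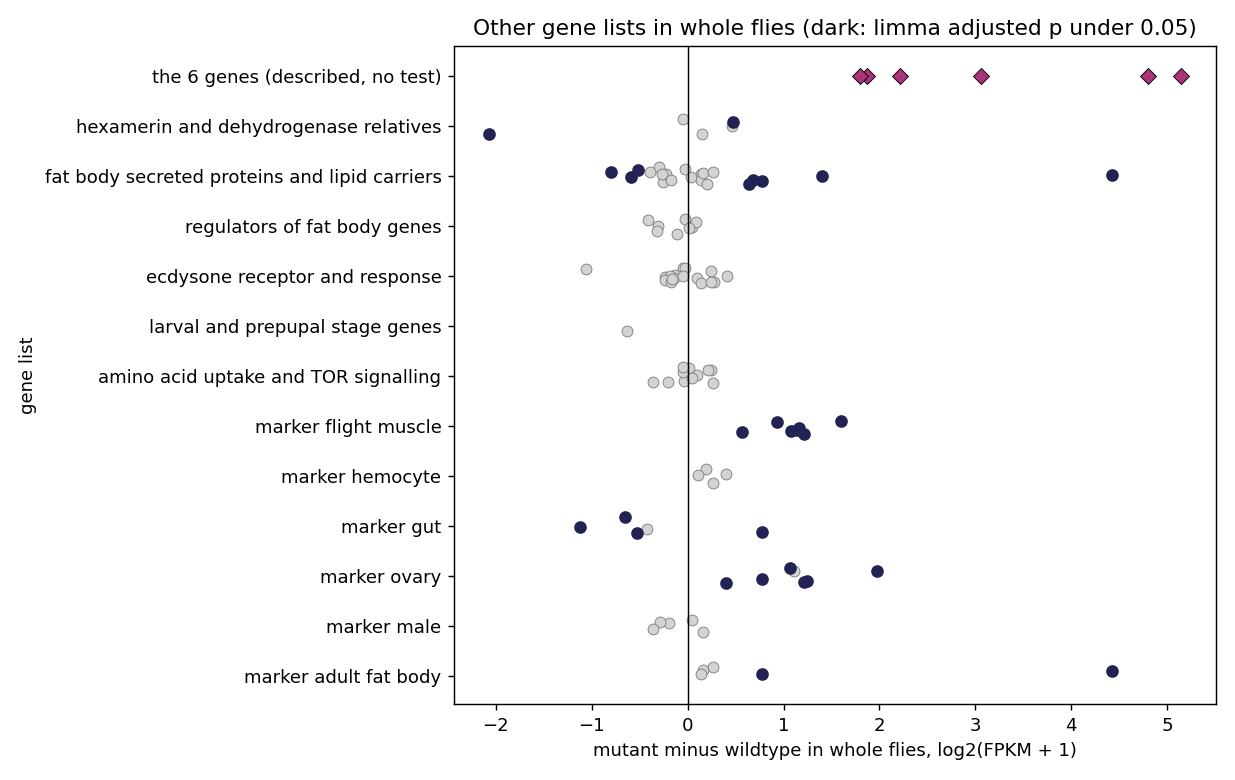
Difference of log2(FPKM + 1) in whole flies, mutant minus wildtype, for every tested gene of each list, as points with vertical jitter; dark points were called by limma at an adjusted p under 0.05, grey points were not, and diamonds are the 6 storage and fat body genes. The diamonds span 1.80 to 5.14, and among the list genes only fit, at 4.43, lies in the upper part of that range.

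The patterns of the members themselves fell into different company. Likeness was measured as the root mean square difference of log2(FPKM + 1), centred on the mean of each tissue, over 8 libraries and 9444 genes. Neighbours were picked on these same values, so a pattern that they share with a member follows from the choice and is no separate result. Nearest to Fbp1 were Obp99b, an odorant binding protein gene, at 0.28, CG32198 at 0.31 and Fbp2 at 0.39. Nearest to Fbp2 were Fbp1 at 0.39, CG32198 at 0.47 and Obp99b at 0.58. Obp99b had 4.35 and 6.03 FPKM in wildtype whole flies and 155 and 147 in mutant, and in muscle 51.3 and 41.0 in wildtype and 62.8 and 26.1 in mutant. CG32198 had 0.108 and 0.305 FPKM in wildtype whole flies and 22.6 and 19.9 in mutant. By this choice, Fbp1 and these neighbours had higher levels in both mutant whole-fly libraries than in both wildtype ones. The level itself was not part of the choice, and Obp99b stood far above Fbp1 in wildtype.

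Lsp1gamma had other neighbours. Nearest to it were verm, a chitin deacetylase gene, at 0.22, the neuropeptide-like precursor gene Nplp3 at 0.24 and serp, another chitin deacetylase gene, at 0.26. In whole flies verm had 19.7 and 15.4 FPKM in wildtype, 67.4 and 69.1 in mutant, and in muscle 19.8 and 33.4 in wildtype and 21.0 and 5.07 in mutant. Like Lsp1gamma, to which it was matched on these values, verm was highest in wildtype replicate 2 and lowest in mutant replicate 2 of muscle.

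Lsp2 and Lsp1beta were near each other, at 0.52, and shared the neighbour Srg1, at 0.50 from Lsp2 and 0.38 from Lsp1beta. CG9616 at 0.37 and the cuticle protein gene Cpr49Ab at 0.43 completed the list for Lsp1beta, and CG3513 at 0.56 that for Lsp2. Srg1 had 7.01 and 8.28 FPKM in wildtype whole flies and 45.5 and 34.5 in mutant, and in muscle 22.5 and 10.3 in wildtype and 6.93 and 6.67 in mutant. Lsp1alpha could be compared over the 4 whole-fly libraries only, where CG14565 at 0.03, Act79B, an actin of tubular muscle, at 0.04 and lncRNA:CR43452 at 0.04 were nearest among 11416 genes.

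**Figure D5:**
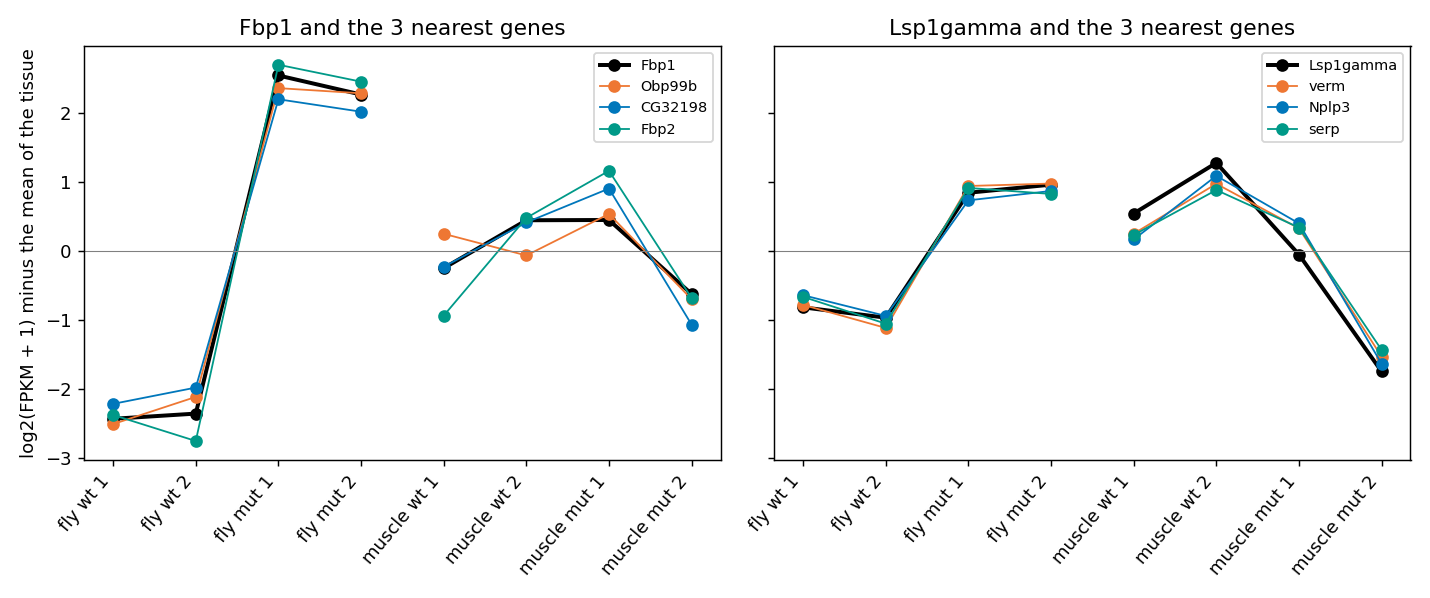
log2(FPKM + 1) minus the mean of the tissue in each of the 8 libraries for Fbp1 (left) and Lsp1gamma (right), in black, with the 3 nearest genes in colour; wt is wildtype and mut mutant. The neighbours, picked on the values shown, lie between 0.28 and 0.39 from Fbp1 and between 0.22 and 0.26 from Lsp1gamma. In muscle the lowest library of Lsp1gamma and its neighbours is mutant replicate 2.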

How the data were processed

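The 8 libraries of wildtype and mutant flies were read from the 2 tables of FPKM that the authors deposited, per the file headers with gene names, release 6 coordinates and gene lengths. The choice of aligner, counter, strand setting and annotation version is not given in the sources used here. A mouse build, mm10, is named in the submitters' processing notes, which the fly coordinates in the tables contradict. Columns of the whole-fly table carry genotype and repeat without a tissue, and were mapped by the fact that every muscle sample is named in the second table. Symbols were matched by identifier for 17862 of 17898 whole-fly and 23365 of 23983 muscle entries. Exons and reading frames are from release 115 of the Ensembl annotation, in which the 6 genes have the coordinates of the tables.

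FPKM times length came out as whole reads, to within 0.1 reads, for 100% of nonzero values once divided by a step found for each library. The recovered reads summed to between 18580751 and 22210197 per library. Ratios given with counting intervals use these reads, pooled over the 2 libraries of a genotype. The intervals (exact, 95%) cover counting error only.

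Each tissue was fitted alone with limma 3.58.1 in R 4.3.3 on log2(FPKM + 1), mean-variance trend on, for entries with at least 1 FPKM in at least 2 of 4 libraries, Benjamini-Hochberg adjustment over all of them, threshold 0.05. The procedure was tested on simulated data with 1 fixed spread for all genes of both tissues. In whole flies 88% of 2-fold and 100% of 4-fold changes were recovered, with 18 false calls. In muscle these were 74.7% and 97%, with 17 false calls. The spread was not fitted to the real replicates, so the shares recovered and the false calls do not carry over to the real data of either tissue. The members and lists were chosen with earlier results of these data known. Named from each list were called genes, at most 4 per direction, or the 2 most abundant where none was called. Gbp1 was named beyond this limit. Marker genes, EcR, srp, Yp1, Yp3, apolpp, Edg91, PPO1 in whole flies, Nplp2 in muscle and CG42847 were named after their values were seen. Deposited symbols were used for MsrA (Eip71CD), Cth (Eip55E) and nanos (nos). Alternatives covered pseudocount, filter, scaling, coding entries, shared spread, limma-voom, a replicate block and each library left out.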

Additional observations from a re-analysis of the deposited data

Results flagged for a closer look

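Lsp1beta and Lsp1gamma differed in opposite directions in the tissues. For Lsp1beta both mutants lay above both wildtypes in whole flies, with a log2 difference of 2.21, and below them in muscle, with -1.71. For Lsp1gamma the values were 1.80 (1.795 before rounding) in whole flies and -1.81 (-1.809) in muscle. The difference between tissues was not tested. The muscle values rest on libraries that differ widely within a genotype, with Lsp1beta at 75.8 and 16.6 FPKM in wildtype and Lsp1gamma at 5.08 and 0.876 FPKM in mutant.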

How the results depend on the processing

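None of the whole-fly log2 differences of the 6 genes changed sign under an alternative, and 63 stayed within the replicate spread while 11 moved beyond it. The pseudocount of 0.1 gave log2 differences of 3.31 for Lsp1alpha, 2.77 for Lsp1beta, 1.95 for Lsp1gamma, 5.72 for Lsp2, 7.66 for Fbp1 and 6.94 for Fbp2. Limma-voom on recovered reads gave 3.55, 2.72, 6.92, 9.30 and 7.21 for Lsp1alpha, Lsp1beta, Lsp2, Fbp1 and Fbp2. In muscle the sign of Fbp1 turned with quantile scaling (0.0031), and limma-voom gave it -1.01. Leaving out a library gave -1.72 to 0.43 for Lsp2, -0.53 to 0.35 for Fbp1 and -0.24 to 1.39 for Fbp2 in muscle. The whole-fly count of 2372 calls ranged from 1409 (without wildtype replicate 1; 1512 without wildtype replicate 2) to 3213 with a library left out, and was 544 with the spread shared over all 8 libraries, where 2 of 5 tested members were called. Limma-voom called 897 higher and 2004 lower, against 1135 and 1237. The muscle count of 0 became 2 with a minimum of 5 FPKM, with quantile scaling and with protein-coding entries only, 251 with shared spread, and 0 to 12 with a library left out, the 12 without mutant replicate 1, and no member was among these calls. The replicate numbers mark no shared batch in the labels, and deviations of same-numbered libraries correlated at -0.15 in whole flies and 0.39 in muscle. With the replicate block 2807 whole-fly and 0 muscle entries were called. A crossed pairing, added after seeing the data, called 3029 in whole flies. With either mutant left out, Lsp1alpha, Lsp2, Fbp1 and Fbp2 no longer passed the whole-fly filter.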

Other observations

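Besides the members and the prophenoloxidases, the deposited whole-fly descriptions give a hemocyanin domain to CG8100 and CG7320, which were looked up after their values were seen. CG7320 had 0 reads in both wildtype whole-fly libraries and 3 and 5 in mutant. CG8100 had 3 and 3 reads in wildtype and 13 and 7 in mutant, and in muscle 22 and 28 in wildtype and 4 and 7 in mutant.

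The gene fit, at most 0.381 FPKM in wildtype whole flies, had 295 and 135 FPKM in wildtype muscle and 168 and 171 in mutant muscle. Each level is on the scale of its own table.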
